A study of Mus musculus with 5 samples.

Results

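Antioxidant and glutathione defence in mouse lung was followed through 10 genes: Gclc, Gclm, Hmox1, Sod1, Sod2, Sod3, Cat, Gpx3, Txnrd1 and Srxn1. Their members on the array were all probe sets whose only gene symbol in the platform annotation was that of the gene, which gave 26 of the 45101 probe sets for 10 of 18194 named genes. In at least 1 array 20 of the 26 passed an intensity of 64, and each of the 10 genes had at least 1 of them. The other 6, which belong to Sod1, Sod2, Txnrd1 and Srxn1, lay below it in every array and are described only by their range.

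Whole lung of naive female mice, untouched by the elastase of the emphysema model in the study's title, was profiled with 1 array of mixed RNA from 3 of 5 lungs for each of 5 strains. The study looked for genes whose lung levels set strains apart in connection with a compound that acts against emphysema. C57 was C57BL/6J. The other 4 strains, 4B(+/+), 4B(-/-), 4D(+/+) and 4D(-/-), carry either the normal or the knocked-out gene for a cyclic AMP phosphodiesterase, PDE4B in the 4B strains and PDE4D in the 4D strains. All 4 came from a C57BL/6 × 129/Ola background and had been backcrossed to C57BL/6J for 11 generations or more, so wild-type lines and knockouts share that history and C57 does not. With 1 array per strain there is no replicate check, no test and no error for any difference, and the values compare arrays, not conditions. Because whole lung was measured, fewer cells of a type and less RNA per cell cannot be told apart. The arrays had been brought to a common scale by the authors, with medians between 45.4 and 46.6, and brightness is not compared between different probe sets.

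The genes act along a shared route. Glutathione, a small thiol that cells hold in large amounts, is made from glutamate and cysteine by glutamate-cysteine ligase. Superoxide is turned into hydrogen peroxide by superoxide dismutases, and peroxide is removed by catalase, glutathione peroxidases and the thioredoxin and peroxiredoxin system. Many of the genes answer to the transcription factor NRF2, encoded by Nfe2l2, which is held down by KEAP1 and binds the antioxidant response element next to its target genes. In lung these enzymes face inhaled oxygen and oxidants from smoke and from inflammatory cells.

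The letters of that element were looked for in RefSeq promoter windows of assembly GRCm38.p6, each running from 250 bases before to 50 after a gene's start. Windows were matched for 7 of the 10 genes, Gclm, Sod1, Sod2, Cat, Gpx3, Txnrd1 with 3 windows and Srxn1. The core searched was TGACNNNGC, which reads GCNNNGTCA on the opposite strand, and 12.4% of all 32851 windows hold it. It lies in 4 of the 9 windows of these genes, those of Gclm, Sod1, Srxn1 and a window of Txnrd1, each time on the strand opposite to the gene. The matches are shown with 10 bases on either side, with the match in capitals, because they let a reader see how the genes that share the core differ around it. A match of letters is a description and does not show binding.
Gclm, chr3:122245413-122245441, plus strand, from -134 to -126 relative to the start: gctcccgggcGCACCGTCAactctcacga
Txnrd1, chr10:82859104-82859132, plus strand, from -92 to -84: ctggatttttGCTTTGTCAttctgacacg
Sod1, chr16:90220696-90220724, plus strand, from -56 to -48: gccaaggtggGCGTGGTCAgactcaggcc
Srxn1, chr2:152105542-152105570, plus strand, from 29 to 37 after the start: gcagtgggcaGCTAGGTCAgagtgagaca

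The CCAAT box, CCAAT or ATTGG on the opposite strand, lies in 37.4% of all windows and in windows of 6 of the genes, Cat, Gclm, Gpx3, Sod1, Sod2 and Txnrd1. The Cat window holds 4 of them and no TGACNNNGC. Its last 120 bases before the start hold 3 of the 4 and are shown, with the CCAAT letters in capitals, because Cat is the gene whose level differed most between the arrays.
Cat, chr2:103485154-103485273, minus strand: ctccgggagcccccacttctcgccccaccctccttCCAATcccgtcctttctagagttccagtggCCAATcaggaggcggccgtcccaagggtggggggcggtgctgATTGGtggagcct

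Across the 5 arrays Cat was the one gene of the 10 that spanned at least 1.5-fold between its lowest and highest array, and 13.8% of all 11500 genes over the floor did so. The floor was an intensity of 64, log2 6, in the highest array, and each gene was read from its brightest probe set. The median span of the 10 genes was 1.26-fold beside 1.22-fold for all genes, and 5 of the 10 spanned less than 0.32 on the log2 scale, which was the lower threshold for a difference. The highest array was 4B(-/-) for 5 of the 10 genes, and the lowest was 4D(-/-) for 4. The shares of all genes highest or lowest in these arrays were not counted, so whether this sets the 10 genes apart is not known.

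**Figure D1:**
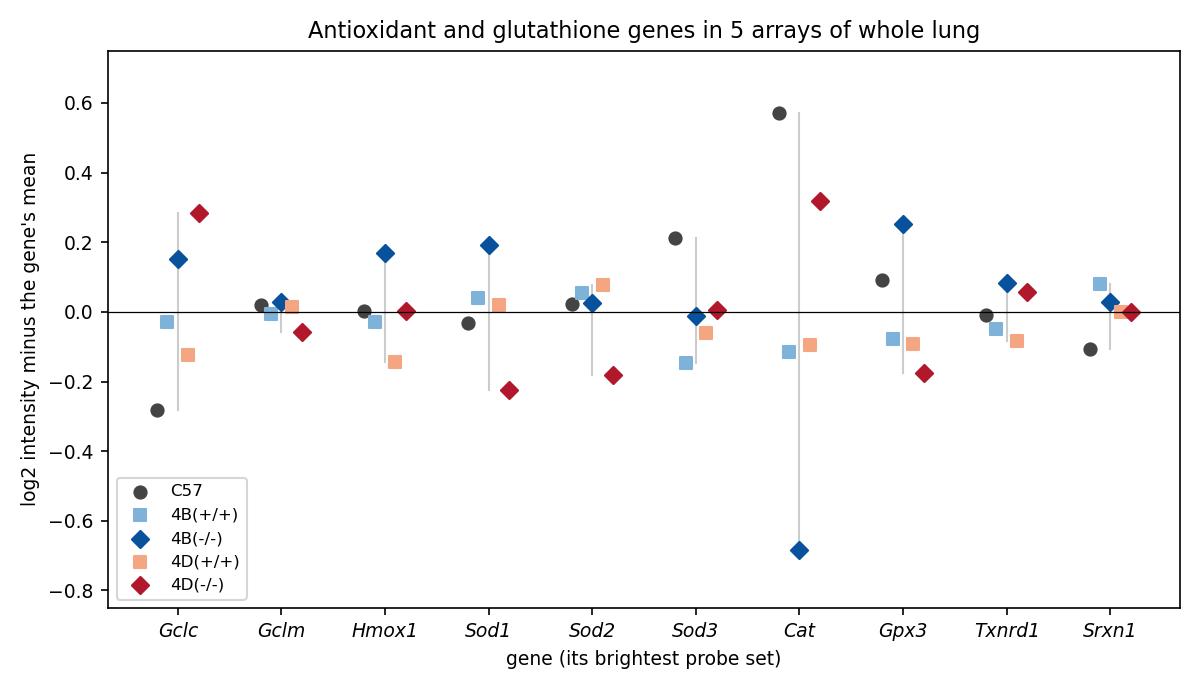
Level of each of the 10 genes in the 5 arrays, as log2 intensity of the brightest probe set minus the mean of that gene over the arrays. Each point is 1 array, and the grey line joins the lowest to the highest. Cat spans 2.39-fold from 4B(-/-) to C57, Gclc spans 1.48-fold from C57 to 4D(-/-), and Gclm spans 1.06-fold.

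Gclc encodes the catalytic subunit of glutamate-cysteine ligase, the rate-limiting enzyme of glutathione synthesis. Its brightest probe set read 1609 in C57, 1920.2 in 4B(+/+), 2176 in 4B(-/-), 1795 in 4D(+/+) and 2382 in 4D(-/-). Both knockouts thus lay above all 3 wild-type arrays, and C57 was the lowest. The step beyond the highest wild-type array was 1.13-fold in 4B(-/-) and 1.24-fold in 4D(-/-). The other Gclc probe set gave the same order, at 1145, 1346, 1575, 1244 and 1697 in the same sequence of arrays, with steps of 1.17-fold and 1.26-fold. The span of Gclc, 1.48-fold, was wider than that of 85.0% of all genes.

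Gclm encodes the modifier subunit, which lowers the enzyme's need for glutamate and weakens its inhibition by glutathione. Gclm hardly differed between arrays, with 748 in C57, 735 in 4B(+/+), 753 in 4B(-/-), 746 in 4D(+/+) and 709 in 4D(-/-). Its span of 1.06-fold exceeded that of 6.96% of all genes. The dimmer Gclm probe set read 307 in C57 and 229 to 244 in the lines, a drop from C57 that the brighter one does not have. The subunits of the enzyme therefore did not share a pattern over these arrays.

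Hmox1 encodes haem oxygenase 1, the inducible enzyme that breaks haem into biliverdin, iron and carbon monoxide. It read 152 in C57, 148 in 4B(+/+), 170.4 in 4B(-/-), 137 in 4D(+/+) and 152 in 4D(-/-). The 4B(-/-) array lay 1.12-fold above the wild-type range and 4D(-/-) lay within it, at the value of C57.

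Sod1 encodes the copper and zinc superoxide dismutase of the cytosol. Its brightest probe set read 5875 in C57, 6174 in 4B(+/+), 6865 in 4B(-/-), 6091 in 4D(+/+) and 5142 in 4D(-/-), with 4B(-/-) above and 4D(-/-) below the wild-type range. Another bright Sod1 probe set ran the other way in the 4B pair, with 6064 in C57, 4945 in 4B(+/+), 4571 in 4B(-/-) and 4945 in both 4D arrays. The other 2 over the floor lay between 172 and 209.6 and between 74.5 and 80.4, and the dimmest lay between 4.33 and 4.85. No order of the strains was shared by the Sod1 probe sets.

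Sod2 encodes the manganese dismutase of mitochondria. Its 2 brightest probe sets were lowest in 4D(-/-). The brighter read 2227 in C57, 2280 in 4B(+/+), 2234 in 4B(-/-), 2315 in 4D(+/+) and 1937 in 4D(-/-), and the next read 1679, 1712, 1712, 1871 and 1402 in that sequence. In 4D(-/-) they lay 1.15-fold and 1.20-fold below the lowest wild-type array. The next probe set down, between 340.3 and 371, was highest in 4D(-/-), and the dimmest lay between 34.3 and 46.3.

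Sod3 encodes the secreted dismutase, which binds the extracellular matrix and is abundant in lung and vessel walls. It was brightest in C57, at 372, and lower in each of the lines, at 289.9 in 4B(+/+), 319 in 4B(-/-), 308 in 4D(+/+) and 323 in 4D(-/-). The lines lay 1.15-fold to 1.28-fold below C57, and both knockouts lay within the wild-type range. The dimmer Sod3 probe set was also highest in C57, at 110.1, with 109 in 4B(-/-) and 96.2 to 105 in the other lines.

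Cat encodes catalase, the peroxisomal enzyme that splits hydrogen peroxide into water and oxygen. Its brightest probe set read 4475 in C57, 2782 in 4B(+/+), 1874 in 4B(-/-), 2821 in 4D(+/+) and 3757 in 4D(-/-). C57 was the highest, the wild-type lines were close to each other, and the knockouts lay on opposite sides of them. The span of 2.39-fold was wider than that of 97.7% of all genes. The 4B(-/-) array stood 1.48-fold below the lowest wild-type array, and 4D(-/-) lay within the wild-type range, below C57 and above the wild-type lines.

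The other Cat probe set spanned 1.44-fold, with 2810.0 in C57, 2232 in 4B(+/+), 1957 in 4B(-/-) and 2313 in both 4D arrays. It had C57 highest and 4B(-/-) lowest as well, 1.14-fold below the wild-type range. It put no difference between the 4D arrays. Equal values on different arrays occurred in 6 of the 20 probe sets over the floor and in 39.2% of all probe sets over the floor with 1 symbol.

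**Figure D2:**
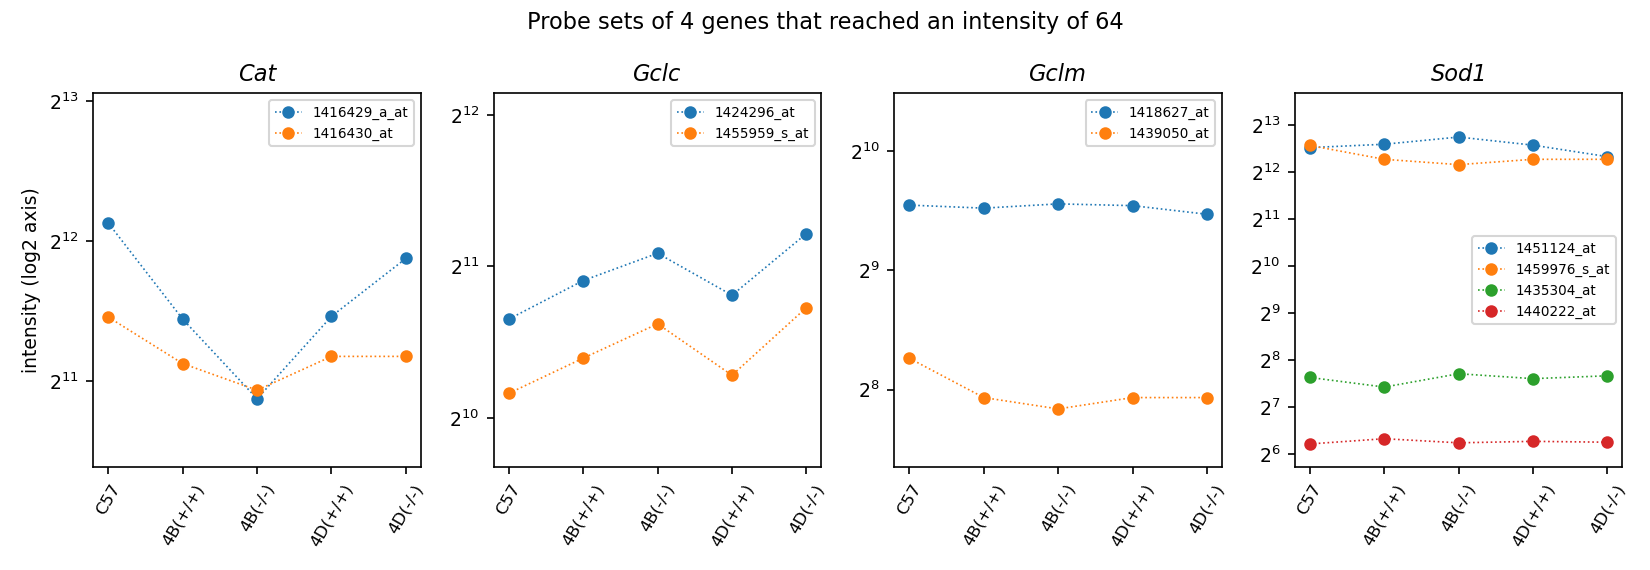
Intensity on a log2 axis of every probe set over the floor for Cat, Gclc, Gclm and Sod1 in the 5 arrays, with 1 point per array and dotted lines only to guide the eye. Both Cat probe sets are highest in C57 and lowest in 4B(-/-), both Gclc probe sets are highest in 4D(-/-), and the Gclm and Sod1 probe sets disagree. Height is not comparable between probe sets.

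Gpx3 encodes the secreted glutathione peroxidase of plasma and airway lining fluid, a selenoprotein. It read 4269.8 in C57, 3795 in 4B(+/+), 4778 in 4B(-/-), 3764 in 4D(+/+) and 3552 in 4D(-/-). The 4B(-/-) array lay 1.12-fold above and 4D(-/-) lay 1.06-fold below the wild-type range. Gpx3 is read by a single probe set, so no other probe set of the gene could be set beside it.

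Txnrd1 encodes the cytosolic thioredoxin reductase, another selenoprotein, which passes electrons from NADPH to thioredoxin. It read 709.5 in C57, 691 in 4B(+/+), 757 in 4B(-/-), 674 in 4D(+/+) and 744 in 4D(-/-). Both knockouts lay above the wild-type range, by 1.07-fold and 1.05-fold, in a gene whose whole span was 1.12-fold. Its 2 dimmer probe sets lay between 24.9 and 31.6 and between 6.77 and 7.66.

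Srxn1 encodes sulfiredoxin, which returns overoxidised peroxiredoxins to their active form. It read 146 in C57, 166 in 4B(+/+), 160.3 in 4B(-/-) and 157 in both 4D arrays, with C57 lowest and the knockouts inside the wild-type range. A dimmer probe set near the floor was also lowest in C57, at 61.0, with 65.2 to 70.5 in the lines. The other 2 lay between 51.7 and 53.3 and between 40.8 and 42.9.

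Each knockout was then set against its matching wild-type line, which addresses whether loss of PDE4B or PDE4D went with a difference in these genes. In 4B(-/-) over 4B(+/+) none of the 10 genes differed by at least 1.5-fold, where 1.31% of all genes did. At the lower threshold, a log2 difference of 0.32, Gpx3 was 1.26-fold higher and Cat was 1.48-fold lower, 2 of 10 genes where 6.4% of all genes passed. The median log2 difference of the 10 genes was 0.13 beside 0.0087 for all genes. Of the 10 genes 7 were above 0, and the share of all genes above 0 was not counted. Among these 7, Gclm and Sod1 had other probe sets over the floor below 0, at -0.095 for Gclm and -0.113 for the other bright Sod1 probe set. The central 95% of all genes lay between -0.385 and 0.326 in this comparison. Cat, at -0.569, lay below that span, and Gpx3, at 0.332, lay just above it. The dimmer Cat probe set was 1.14-fold lower, short of the lower threshold.

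In 4D(-/-) over 4D(+/+) none of the 10 genes differed by 1.5-fold either, where 5.63% of all genes did. At the lower threshold, where 19.2% of all genes passed, Gclc and Cat were each 1.33-fold higher and none was lower. The dimmer Cat probe set was equal in these arrays, so the Cat value rests on 1 probe set. With C57 as the reference Cat in 4D(-/-) had the opposite direction, 1.19-fold lower. The other Gclc probe set was 1.36-fold higher in 4D(-/-) than in 4D(+/+). Sod1 and Sod2 were 1.18-fold and 1.20-fold lower. The median log2 difference of the 10 genes was 0.03 and that of all genes was 0, and all 10 lay inside the central 95% of all genes, from -0.79 to 0.45.

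The wild-type lines were set against C57 to see what the lines carried without a knockout. Both comparisons use the same C57 array. In 4B(+/+) over C57, where 3.56% of all genes passed 1.5-fold, Cat was 1.61-fold lower and no other of the 10 genes passed. At the lower threshold, where 14.2% of all genes passed, Sod3 was also lower, by 1.28-fold. In 4D(+/+) over C57, Cat was 1.59-fold lower and again the only one of the 10 past 1.5-fold, where 5.5% of all genes were, and past the lower threshold, where 18.5% were. Cat lay below the central 95% of all genes in both, at log2 differences of -0.69 and -0.67 against lower ends of -0.49 and -0.49. With the dimmer probe set Cat was 1.26-fold and 1.21-fold lower. The median log2 differences of the 10 genes were -0.03 and -0.04.

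**Figure D3:**
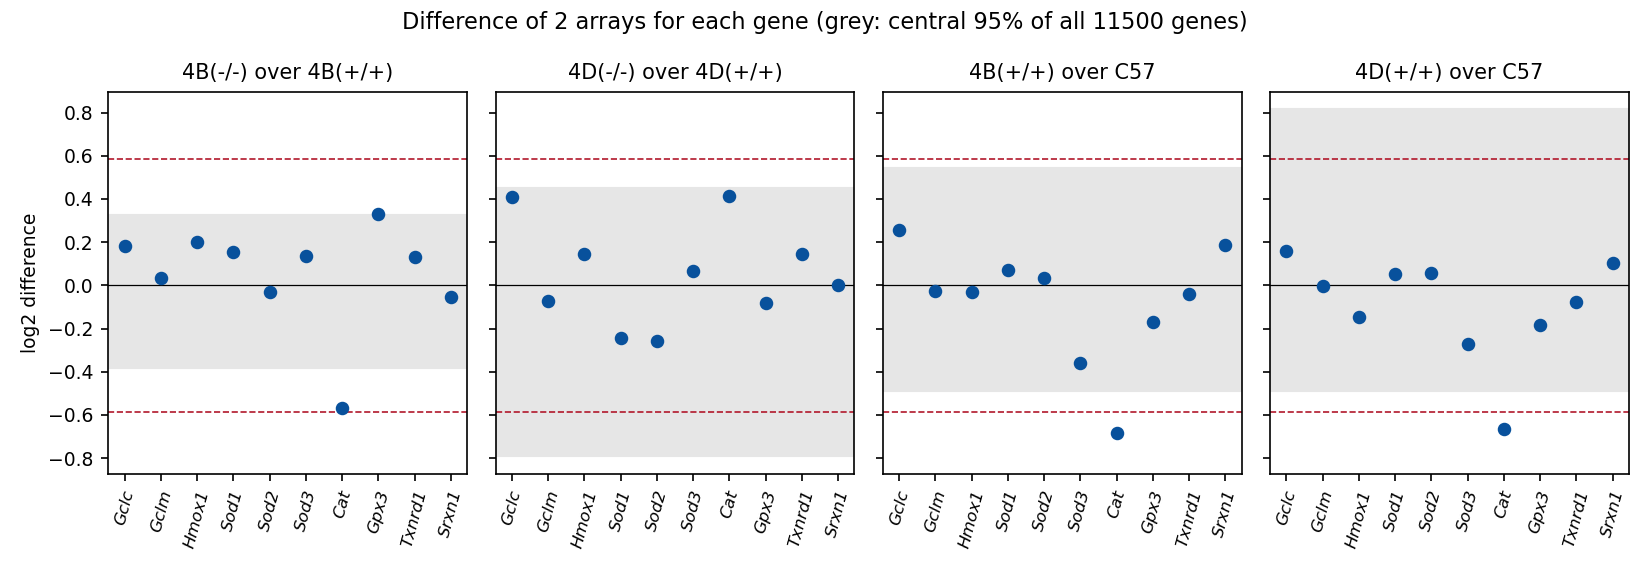
Log2 difference of 2 arrays for each of the 10 genes in 4 comparisons, with 1 point per gene. The grey band holds the central 95% of all 11500 genes over the floor and the dashed lines mark 1.5-fold. Cat lies below the band in 4B(-/-) over 4B(+/+) and in both wild-type lines over C57, and inside its upper edge in 4D(-/-) over 4D(+/+), while Gpx3 lies just above the band in 4B(-/-) over 4B(+/+).

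Against C57 directly, Cat was 2.39-fold lower in 4B(-/-), the one gene of the 10 past 1.5-fold where 6.1% of all genes were. In 4D(-/-) none of the 10 passed 1.5-fold from C57, where 2.17% of all genes did. By any amount, all 4 lines lay above C57 for Gclc, by 1.12-fold to 1.48-fold, and for Srxn1, by 1.07-fold to 1.14-fold. They lay below C57 for Sod3 and for Cat, by 1.19-fold to 2.39-fold for Cat. The share of all genes with the 4 lines on one side of C57 by any amount was not counted. For no gene of the 10 did all 4 lines lie on the same side of C57 by the lower threshold or more, which 3.3% of all genes did.

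The 3 wild-type arrays, though of different strains, give the only spread between pools without a knockout. Of the 10 genes in 4B(-/-), 6 lay above that range by any amount, 1 below and 3 within. In 4D(-/-) 2 lay above, 4 below and 4 within. The same shares of all genes were not counted, so whether these counts set the 10 genes apart is not known. By at least the lower threshold beyond the range, Cat was the one gene of the 10 in 4B(-/-), where 2.98% of all genes lay so far out, and there was none in 4D(-/-), where 2.74% did. Gclc and Txnrd1 were outside the range in both knockouts and on the same side, above it, by any amount. Such were 9.22% of all genes, and this count was chosen after the values had been seen.

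Markers of other cells and a sign of RNA quality moved with Cat in part of the arrays. The alveolar macrophage list, with 5 of 6 markers measured and none below the floor, summed to 8191 in C57, 8057 in 4B(+/+), 7090 in 4B(-/-), 6309 in 4D(+/+) and 9663 in 4D(-/-), so like Cat it was lower in 4B(-/-) and higher in 4D(-/-) than in the matching wild-type line. The interstitial macrophage and monocyte list, 5 of 6 measured, summed to 4145.5, 4452, 4054, 3910 and 4669 in that sequence, with the same direction in both pairs. The erythroid list had 4 of 6 markers measured, with Hba-a1 and Slc4a1 below the floor. It summed to 243, 302, 279, 173 and 397 in that sequence, with the same direction in both pairs. The list of brown and white fat, 4 of 6 measured with Lep below the floor, summed to 1042 in C57, 3750 in 4B(+/+), 2415 in 4B(-/-), 4322 in 4D(+/+) and 738 in 4D(-/-), high in the wild-type lines where Cat was lower than in C57. The ratio of 3' to 5' signal for Gapdh was 1.72 in C57, 1.37 in 4B(+/+), 1.57 in 4B(-/-), 1.31 in 4D(+/+) and 1.77 in 4D(-/-). It was highest in C57 and 4D(-/-), where Cat was highest, but it was also higher in 4B(-/-) than in 4B(+/+), where Cat was lower in 4B(-/-). The same ratio for actin, at 1.89, 1.62, 1.79, 1.83 and 1.86 in that sequence of arrays, was also highest in C57 and 4D(-/-). The actin ratio differed little in the 4D pair, was high in 4D(+/+), and was higher in 4B(-/-) than in 4B(+/+). The part of these in the values of Cat was not tested.

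Lung itself was well represented, with the alveolar type 2 list, 5 of 6 measured, between 49890 and 52604 in all arrays. The 3 liver and 4 kidney tubule markers measured were all below the floor. Skeletal muscle markers, 8 of 8 over the floor, summed to 31591 in 4D(+/+) and to 3157 to 7032 in the other arrays. Cardiac muscle markers, 6 of 6 over the floor, summed to 16246 in 4B(-/-) and to 9641 to 12854 in the other arrays. The neutrophil list, 5 of 6 measured with Ngp and Camp below the floor, summed to 5068 in C57, 10173 in 4B(+/+), 6850 in 4B(-/-), 11075 in 4D(+/+) and 5348 in 4D(-/-). The list of thyroid and parathyroid, 4 of 5 measured with Tshr and Pax8 below the floor, summed to 4910.4, 9856, 923, 15228 and 3884 in that sequence. Both sums were highest in 4D(+/+) and next highest in 4B(+/+). Within the neutrophil list the markers over the floor were split in the 4B pair. Ltf read 7136 in 4B(+/+) and 3598 in 4B(-/-), while S100a8 read 2022 and 2162 and S100a9 read 970 and 1050. The targeted genes read 558 in 4B(+/+) and 457 in 4B(-/-) for Pde4b, and 523 in 4D(+/+) and 386 in 4D(-/-) for Pde4d, in their brightest probe sets. The sources used here do not place those probes inside or outside the deletions, so they do not check the labels.

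By the closeness of centred log2 values over the 5 arrays, the genes most like Cat were Hnrnpr, Scp2 and Usp25, with root mean square differences of 0.0575, 0.0685 and 0.0715, where Cat itself had a root mean square of 0.429 around its mean. Scp2, a lipid transfer protein found in peroxisomes, read 5551 in C57, 3345 in 4B(+/+), 2515 in 4B(-/-), 3454 in 4D(+/+) and 4370 in 4D(-/-). Hnrnpr, an RNA-binding protein, read 2088, 1300, 928, 1363 and 1951 in the same sequence. Closest to Gclc, with 0.200 around its mean, were Ccnjl, Grrp1 and Sh3pxd2b, at 0.0429, 0.0516 and 0.0563. Closest to Gpx3, with 0.153, were Nsmce2, 1110051M20Rik and Grap, at 0.0283, 0.033 and 0.0368. This likeness over 5 arrays says nothing about function or control.

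The wider pathway was read from a list of 112 other genes in 10 roles, of which 101 had a probe set of their own symbol and 95 reached the floor. In 4B(-/-) over 4B(+/+) none of the 95 differed by 1.5-fold, beside 1.31% of all genes, and at the lower threshold Nnt and Cybb were lower, 2.11% beside 6.4%. In 4D(-/-) over 4D(+/+) 2 were at least 1.5-fold higher and 5 lower, 7.37% of the list beside 5.63% of all genes. At the lower threshold 5 were higher and 23 lower, 29.5% beside 19.2%. The median log2 differences of the list were 0.03 in the 4B pair and -0.08 in the 4D pair. In 4B(+/+) over C57 2 were higher by 1.5-fold, 2.11% of the list beside 3.56% of all genes. In 4D(+/+) over C57 6 were higher and 2 lower, 8.42% beside 5.5%.

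Among the regulators none of 9 differed by 1.5-fold in these comparisons. Nfe2l2 itself read 2271 in C57, 2217 in 4B(+/+), 2106 in 4B(-/-), 2112 in 4D(+/+) and 2416 in 4D(-/-), and Keap1, its repressor, read between 450.2 and 484. Bach1, a haem-sensing repressor that competes for the same element, read 1410.0 in 4D(+/+) and 1787 in 4D(-/-), 1.27-fold higher, and 1522 and 1448 in the 4B wild type and knockout. Maff, a small MAF partner of NRF2, was 1.22-fold higher in 4D(-/-) than in 4D(+/+). In the 4B pair the widest differences among regulators were 1.10-fold higher for Nfe2l1 and 1.08-fold lower for Cul3.

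The genes of glutathione synthesis, recycling and breakdown, 9 over the floor, had none past 1.5-fold in any of the 4 comparisons. The glutaredoxin gene Glrx2 read 466 in C57 and both 4B arrays, 545 in 4D(+/+) and 403 in 4D(-/-), 1.35-fold lower in the 4D knockout. Slc3a2, a chain shared by amino acid transporters that include the cystine carrier, read 1236 in 4D(+/+) and 1544 in 4D(-/-). That is a log2 difference of 0.3210, just short of the lower threshold at 0.3219. The carrier's own gene, Slc7a11, read 15.4 in all arrays, below the floor.

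The other glutathione peroxidases, 5 over the floor, had a median log2 difference of 0.17 in the 4B pair and -0.23 in the 4D pair. Gpx4, which protects membrane lipids, read 4024 in C57, 4465 in 4B(+/+), 5191 in 4B(-/-), 5132 in 4D(+/+) and 3556 in 4D(-/-). It was thus 1.16-fold higher in the 4B knockout and 1.44-fold lower in the 4D knockout. Gpx8, of the endoplasmic reticulum, was equal in the 4B pair at 874 and was 1.39-fold lower in 4D(-/-), at 745, than in 4D(+/+), at 1036. Gpx2, an epithelial peroxidase, was lowest in C57, at 586, and 1.28-fold and 1.38-fold higher in the wild-type lines.

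Among 14 genes of thioredoxins, peroxiredoxins and sestrins none passed 1.5-fold. In the 4D pair the median log2 difference was -0.17 and 5 were lower by the lower threshold or more, as were 12.7% of all genes, with Msrb2, a mitochondrial methionine sulfoxide reductase, 1.48-fold lower and Prdx3, the mitochondrial peroxiredoxin, 1.33-fold lower. In the 4B pair Prdx2, a cytosolic peroxiredoxin, was 1.22-fold higher and Txnip, which binds thioredoxin, was 1.22-fold lower. Prdx2 read 1658 in C57, 1913 in 4B(+/+), 2337 in 4B(-/-), 2256 in 4D(+/+) and 1714 in 4D(-/-).

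The glutathione transferases, 19 over the floor, held 4 of the 7 pathway genes past 1.5-fold in the 4D pair. In 4D(-/-) compared with 4D(+/+) Gstm5 was 1.71-fold, Mgst2 1.62-fold, Gstz1 1.60-fold and Mgst3 1.58-fold lower, and none was higher, where 4.53% of all genes were lower by as much. Gstm5 read 323 in C57, 414 in 4B(+/+), 456 in 4B(-/-), 543 in 4D(+/+) and 317 in 4D(-/-), so that 4D(-/-) stood beside C57 and 4D(+/+) was the highest. Over C57, Gsto1 was 1.70-fold higher in 4B(+/+) and 1.61-fold higher in 4D(+/+), with 3336 in C57, 5684 and 5370.4 in those lines, 4936 in 4B(-/-) and 3602 in 4D(-/-). Mgst2 was 1.53-fold and Gstm5 1.68-fold higher in 4D(+/+) than in C57. The summed fat, skeletal muscle, neutrophil and thyroid and parathyroid markers given above were highest in 4D(+/+) and next highest in 4B(+/+). The transferases named here did not have the order of these sums. Gstm5, Mgst2 and Mgst3 were highest in 4D(+/+) and next highest in 4B(-/-), as were the single neutrophil markers S100a8 and S100a9. Ltf, the other neutrophil marker over the floor, was next highest in 4B(+/+). Gstz1 was highest in 4B(-/-) and Gsto1 in 4B(+/+). The part of the marker cells and tissues in the transferase values was not tested.

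NADPH, which pays for the reduction of glutathione and thioredoxin, is supplied by several enzymes of which 8 were over the floor. Malic enzyme, Me1, read 1195 in C57, 1763 in 4B(+/+), 1582 in 4B(-/-), 2288 in 4D(+/+) and 1417 in 4D(-/-). It was 1.91-fold higher in 4D(+/+) than in C57 and 1.61-fold lower in 4D(-/-) than in 4D(+/+). Its order of arrays at the top, with the wild-type lines highest, is also that of the fat list, and the part of fat in it was not tested. Nnt, the mitochondrial transhydrogenase, of which C57BL/6J mice are known to carry a partial deletion, was 2.13-fold higher in 4D(-/-) than in 4D(+/+). It read 509 in C57, 442 in 4B(+/+), 345 in 4B(-/-), 569 in 4D(+/+) and 1212 in 4D(-/-), and another Nnt probe set read 221, 264.5, 282, 330 and 592, highest in 4D(-/-) too. The part of that deletion in the Nnt values was not tested.

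Among genes of copper and metal handling, 6 over the floor, metallothioneins were lowest in C57. Mt2 read 543 in C57, 840 in 4B(+/+), 785 in 4B(-/-), 1028 in 4D(+/+) and 828 in 4D(-/-), 1.55-fold and 1.89-fold higher in the wild-type lines than in C57. Mt1 read 1614 in C57 and 2429 in 4D(+/+), a log2 difference of 0.59. Atox1, the copper chaperone, was 1.35-fold lower in 4D(-/-) than in 4D(+/+). Quinone, haem and iron genes, 13 over the floor, had none past 1.5-fold, with Nqo2 1.38-fold lower and Blvrb 1.31-fold lower in the 4D knockout. The prototype NRF2 target Nqo1 stayed close to the floor, between 62.6 and 82.4. Of 6 selenoprotein genes over the floor none passed 1.5-fold, and Selenok was 1.42-fold lower in the 4D knockout.

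On the side of superoxide production, Cybb, the catalytic subunit of the phagocyte NADPH oxidase, read 898 in C57, 804 in 4B(+/+), 554 in 4B(-/-), 607 in 4D(+/+) and 963 in 4D(-/-). It was 1.45-fold lower in the 4B knockout and 1.59-fold higher in the 4D knockout than in the matching wild-type line. The alveolar macrophage list and the interstitial macrophage and monocyte list, whose sums are given above, had the same direction in both pairs. Their part was not tested. Nox4 and Xdh, which encode NADPH oxidase 4 and xanthine dehydrogenase, were 1.54-fold and 1.57-fold lower in 4D(+/+) than in C57.

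**Figure D4:**
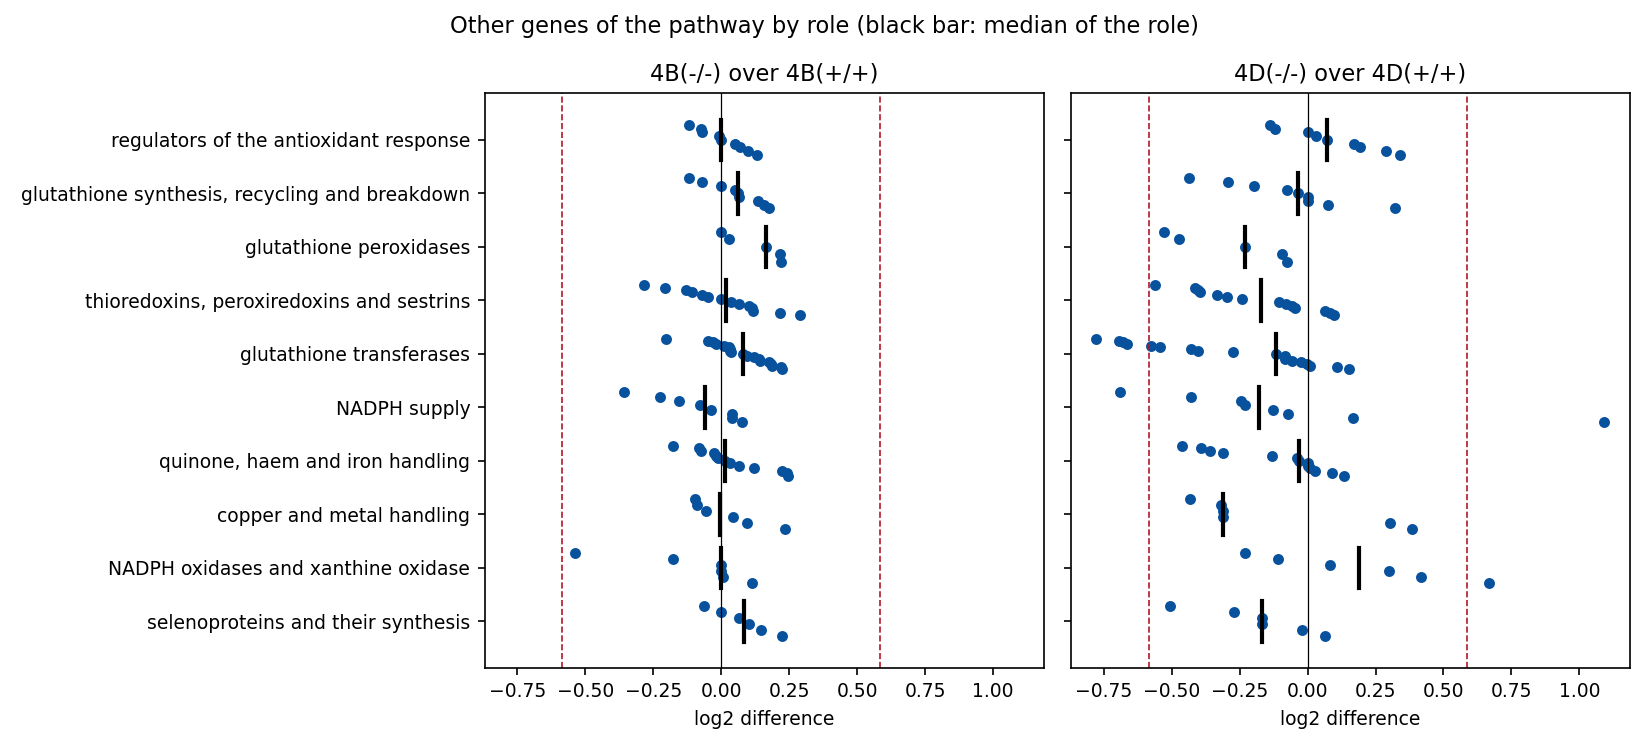
Log2 difference of each of the 95 other pathway genes over the floor, grouped by role, for the knockout over its wild-type line in the 4B pair and the 4D pair. Points are genes, black bars are the median of a role and dashed lines mark 1.5-fold. No point passes the lines in the 4B pair, while Nnt and Cybb lie above and 5 genes lie below them in the 4D pair.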

How the data were processed

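The values deposited by the authors are linear intensities, 1 for each probe set on each array. RMA, which corrects background, equalises the arrays and summarises probes, was used per the submitters' processing notes, with its version and settings not given in the sources used here. They were analysed as log2 values. Only the 34958 probe sets with 1 symbol in the platform annotation were used, and 932 with several and 9211 without a symbol were left out. A gene was read from its probe set with the highest mean, and counted when its highest array reached log2 6. Differences were counted at 1.5-fold and at a lower threshold of 1.25-fold, which is 0.3219 in log2 and is written 0.32 in the text. The 10 genes were named with every probe set, and pathway genes from those past 1.5-fold or the 2 widest differences of a role. Genes, lists and rules were chosen with earlier results of these data known. The median SD of the 3 wild-type arrays, log2 0.0927, served as the spread for judging alternatives. Alternatives were other probe set summaries, floors, fold thresholds and references, median centring and cyclic loess (limma 3.58.1, R 4.3.3). The counting was tested on simulated data. The number of arrays limits the precision.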

Additional observations from a re-analysis of the deposited data

Results flagged for a closer look

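Among the 10 genes and the 95 other pathway genes, 3 differed from the wild-type line in opposite directions in the 4B and 4D pairs by at least 0.32 on the log2 scale in each pair. The share of all genes that did so was not counted, so whether 3 is many or few is not known. Genes such as Gpx4, with opposite signs but a smaller difference in either pair, are not counted. With 1 array on each side these differences of differences were not tested. For Cat the log2 difference was -0.57 in the 4B pair and 0.41 in the 4D pair, a gap of -0.98, but the dimmer Cat probe set gave equal values in the 4D arrays, and with C57 as reference Cat was also lower in 4D(-/-). For Nnt it was -0.36 and 1.09, a gap of -1.45. The other Nnt probe set over the floor read 264.5 in 4B(+/+) and 282 in 4B(-/-), so it has the 4D difference without the opposite sign in the 4B pair. For Cybb it was -0.54 and 0.67, a gap of -1.20.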

How the results depend on the processing

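No paired analysis was possible because each strain has 1 array. Of 454 alternative values 22 had the opposite sign, 8 with another reference, 13 with another summary of probe sets and 1 with another scaling, and 12 of these shifted by less than log2 0.0927. Of differences past the lower threshold 1 turned direction, Cat in the 4D pair, at -0.25 with C57 as reference. Beside it 74 values moved by log2 0.0927 or more, or for counts by more than 1.5 times. Among 272 alternatives for single genes 35 moved with the direction kept or with no call, 14 with another reference and 21 with another summary of a gene's probe sets, and none with another scaling, which shifted the median of an array by at most 0.0226 on the log2 scale. In the 4B pair, genes of the 10 past 1.5-fold numbered 1 under cyclic loess, with C57 as reference and with the averaged wild types as reference, and 2 at the lower threshold. Pathway genes there numbered 1 under the median or mean of probe sets, 3 with C57 as reference and 2 at the lower threshold. In the 4D pair 2 of the 10 passed the lower threshold, pathway genes numbered 4 with C57 as reference, 1 with the mean of wild types, 28 at the lower threshold and 1 at 2-fold, and the median of the 10 was -0.13 with C57 as reference, against 0.03. For the wild-type lines over C57, the Cat call ended under both other summaries of its probe sets and at 2-fold, leaving 0 of the 10 genes in each line. At the lower threshold 2 of the 10 passed in 4B(+/+), and pathway genes numbered 13 and 27 in 4B(+/+) and 4D(+/+), and 0 in both at 2-fold. The medians of the 10 were -0.17 and -0.16 under the median of probe sets. Under both summaries 1 of the 10 lay beyond that threshold outside the wild-type range in 4D(-/-), and 4 lay outside it in both knockouts on the same side under the mean of probe sets and under cyclic loess. The log2 span over the arrays became 0.21 for Gclm and for Sod3 and 0.89 for Cat under both summaries, and 0.28 (median) or 0.10 (mean) for Sod1. A summary over probe sets averages readings that disagree, a lower fold passes more genes by construction, and the cause of the other shifts was not tested.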
